A study of Mus musculus with 36 samples.

Results

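The BMP and TGF-beta pathway was followed through 36 RNA-seq libraries of mouse bone cells as a list of 43 genes chosen by symbol, among 30284 genes with a transcript in the files. The list holds ligands, genes of the latent TGF-beta binding protein family, receptors, Smads, inhibitors and induced targets. Binding of TGF-beta by each protein of that family was not measured here. Cells came from the long bones of mice aged 20 weeks that were wild-type controls (WT) or Mir324-null (null), the latter lacking the gene of the microRNA miR-324. How the null allele was made, and whether libraries of a group came from separate mice, is not stated in the sources used here, so the p-values measure the spread between libraries, which may be partly technical. Bone marrow macrophages (BMM), the precursors of osteoclasts, were held for 5 days in M-CSF at 30 ng/mL. Cultures labelled osteoclasts (OC), the cells that resorb bone, were the same kind of macrophages given M-CSF at 30 ng/mL and RANK-L, which induces osteoclasts, at 50 ng/mL, also for 5 days. Osteoblast cultures (OB), from the cells that form bone, grew out of bone chips and spent 18 days in medium with ascorbic acid and β-glycerophosphate. Each of the 6 groups had 6 libraries.

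TGF-beta is secreted bound to its own propeptide and to a latent TGF-beta binding protein (LTBP), is deposited in bone matrix in that form, and is released when osteoclasts resorb the matrix. BMPs, activins and TGF-betas bind pairs of type I and type II receptor kinases. The receptors phosphorylate Smad2 and Smad3 (TGF-beta and activin) or Smad1, Smad5 and Smad9 (BMP), which enter the nucleus with Smad4 and switch on genes such as Id1 and Id3. In bone, BMPs drive osteoblast differentiation, and TGF-beta acts on both bone-forming and bone-resorbing cells.

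Both arms of the deleted microRNA and the sites that match their seeds in the members' 3′ UTRs are shown first, because the null mice lack this microRNA. Other kinds of site and other parts of the transcripts were not searched. The arms lie on chromosome 11, plus strand, at chr11:70012060-70012082 and chr11:70012095-70012114 (RefSeq, GRCm38.p6), with the seed, bases 2 to 8, in capitals.
miR-324-5p: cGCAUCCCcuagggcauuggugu
miR-324-3p: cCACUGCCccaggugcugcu
A site was defined as the 7 bases complementary to a seed (GGGATGC for 5p, GGCAGTG for 3p) in the longest annotated 3′ UTR, read on the transcript's strand. Of the 43 members, 9 held a site, 4 for the 5p arm (Bmp5, Bmpr2, Grem1, Id3) and 5 for the 3p arm (Tgfbr1, Bmpr1a, Bmpr1b, Acvr1b, Smad2). Over 21028 genes with a 3′ UTR, 18.09% held either site, 7.39% the 5p site and 12.67% the 3p site. Windows of 30 bases (GRCm38, GENCODE M21) around the sites of 7 of them, the site in capitals, are these.
Bmp5 (5p, chr9:75900144-75900173, plus): tgatgatattggGGGATGCactaagtaata
Bmpr2 (5p, chr1:59872245-59872274, plus): gtttggtcagctGGGATGCtgactggagct
Id3 (5p, chr4:136145157-136145186, plus): agagggtgtgggGGGATGCgagtggctgcc
Grem1 (5p, chr2:113748051-113748080, minus): ttatgcctactaGGGATGCtgtcctctgag
Tgfbr1 (3p, chr4:47413655-47413684, plus): tgacagctaagtGGCAGTGgaagttggcct
Acvr1b (3p, chr15:101210880-101210909, plus): acaaagaacctgGGCAGTGaggatgactgc
Bmpr1a (3p, chr14:34412694-34412723, minus): aattataaggcaGGCAGTGagcgctctagt
The 9 members with a site did not move one way in the null cultures. In BMM (27.0% of all genes tested higher, 25.3% lower) 3 were higher (Bmpr1a, Acvr1b, Grem1), 3 were lower (Tgfbr1, Bmpr2, Id3), 1 did not pass the threshold and 2 had too few counts to test. In OC (32.4% and 33.1%) 2 were higher (Bmpr1a, Acvr1b), 1 was lower (Tgfbr1), 3 did not pass and 3 were not tested. In OB (15.5% and 16.9%) 1 was higher (Bmpr2), 1 was lower (Bmp5) and 7 did not pass. Mir324 expression was not analysed here and gives no check of the genotype labels.

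Libraries held 14118972 to 26347581 estimated counts. The labelled cell types were checked against markers. Of 10 osteoclast markers, all 10 were higher in WT OC than in WT BMM, with a summed level of 30350 to 32370 CPM (counts divided by TMM-scaled library size) against 219 to 244 CPM. In null OC the sum was 422 to 768 CPM, all 10 were lower than in WT OC, and Calcr, the calcitonin receptor, had no count, so that OC names the RANK-L treatment there. Null BMM stood lower still, at 308 to 393 CPM, and 7 of the 10 markers were higher and 0 lower in null OC than in null BMM. The 12 macrophage markers summed to 13290 to 16000 CPM in WT OC and 52730 to 64020 CPM in null OC. The OB cultures expressed all 14 osteoblast and stromal markers but also macrophage markers, at 15550 to 19120 CPM in WT and 8362 to 11710 CPM in null, and osteoclast markers at 4129 to 5283 and 4958 to 7675 CPM. Replicates 3 and 6 of null OC stood farthest from their group, with a root mean square log2 difference of 0.386 and 0.501 from the other libraries, and results that rest on them are given with and without them. In bulk cultures such as these, fewer cells of a type and less RNA per cell cannot be told apart.

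In the WT cultures most of the pathway was expressed highest in osteoblasts. By TPM, which allows comparison between genes of different length, 30 of the 43 members had their highest WT mean in OB, 8 in BMM and 5 in OC (8 of the 43 reached no more than 1 TPM in any WT group). The share of all genes with their highest WT mean in OB was not counted. Against WT BMM, 31 members were higher in WT OB and 8 lower of 40 tested, where 41.5% of all 14278 genes tested were higher and 35.3% lower. Against WT OC, 28 were higher and 5 lower, where 41.3% and 36.7% of all genes were. The median log2 change of the members was 2.44 and 2.26 (log2 of the ratio of WT OB to the other group), and that of all genes 0.08 and 0.05. In WT OB the BMP target Id3 was at 424 TPM, the activin A subunit gene Inhba at 349.9 TPM and the ligand Tgfb3 at 135 TPM, whereas in WT BMM Inhba was at 0.287 TPM and Tgfb3 at 2.07 TPM. Bmp4, Bmp5, Gdf6, Chrd, Fst and Bmpr1b were at most 0.0698 CPM on average in WT BMM, and Fst, which encodes the activin-binding antagonist follistatin, had no count in any WT macrophage or osteoclast library against 26.8 to 38.3 CPM in WT OB, at least 202-fold higher on a floor of 3 counts per library.

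The WT myeloid cultures stood apart from WT OB by Tgfbr1 and Tgfbr2, and among WT groups Gdf15 was highest in BMM. Tgfbr1, the type I receptor of TGF-beta, was at 157 TPM in WT OC, 85.5 TPM in WT BMM and 29.7 TPM in WT OB, and each step was past the threshold. Tgfbr2, its type II partner, was at 116 TPM in WT BMM, 101 TPM in WT OC and 74.6 TPM in WT OB. Gdf15, a stress-induced distant member of the TGF-beta family, was at 109 TPM in WT BMM and near 16 TPM in both WT OC (15.9) and WT OB (16.0), which did not differ (log2 change 0.10, SE 0.13, adjusted p = 0.511). Tgfb1, the most abundant of the 3 TGF-beta ligands in WT BMM by TPM, was at 7.35 TPM in WT BMM, 7.21 TPM in WT OC and 3.12 TPM in WT OB.

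**Figure D1:**
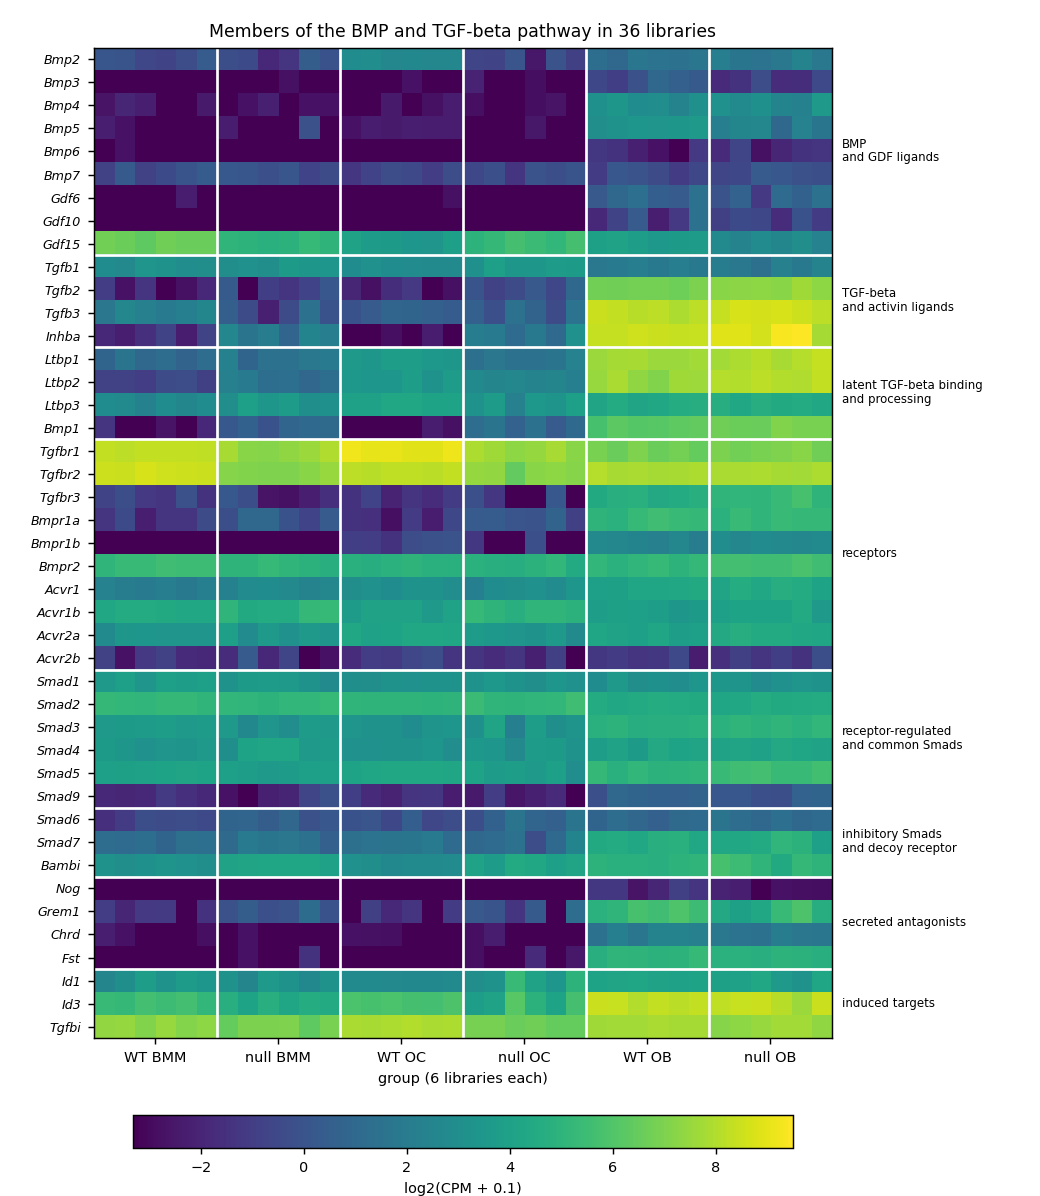
Level of each of the 43 members (rows, grouped by role) in each of the 36 libraries (columns, 6 per group), as log2(CPM + 0.1); brighter is higher. Tgfb2, Tgfb3, Inhba and Bmp1 are bright in the OB columns, and Tgfbr1 and Tgfbr2 are brightest in the WT BMM and WT OC columns.

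RANK-L changed the pathway in WT macrophages. Comparing WT OC with WT BMM (31 members tested on 24 libraries with edgeR's quasi-likelihood test, adjusted p under 0.05 over all genes), 8 members were higher and 8 lower, where 30.4% of all 12671 genes tested were higher and 30.1% lower. In null cultures the same comparison gave 3 higher (Gdf15, Ltbp2, Id1) and 0 lower, where 6.77% of all genes were higher and 6.08% lower. At an unadjusted p under 0.05 the null comparison gave 4 members, for which the share of all genes is not given here. Without replicates 3 and 6 of null OC it gave 2 at the adjusted threshold, where 695 of all 12905 genes were higher and 730 lower. The response to RANK-L differed between genotypes for 15 members, 7 with a more positive and 8 with a more negative response in null cells (25.3% and 26.1% of all genes). These shares of members were near those of all genes. The members that rose in WT were the latent binding proteins Ltbp1, Ltbp2 and Ltbp3, the ligand Bmp2, the receptors Tgfbr1, Acvr1 and Acvr2a and the target Tgfbi. Those that fell were the ligands Gdf15, Tgfb3 and Inhba, the receptors Tgfbr2, Bmpr2 and Acvr1b, Smad1 and the decoy receptor Bambi, whose call was lost in 8 of 12 fits without 1 library.

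Of the latent TGF-beta binding proteins, Ltbp1, Ltbp2 and Ltbp3 rose with RANK-L in WT cells. Ltbp2 was at 0.395, 0.470 and 0.717 CPM (lowest, median and highest of 6 libraries) in WT BMM and at 9.51, 10.9 and 13.7 CPM in WT OC, with no overlap, a log2 change of 4.41 (SE 0.22, adjusted p = 5.84e-16). Ltbp3 was at 4.80, 7.18 and 7.54 CPM in WT BMM and at 16.0, 17.2 and 20.4 CPM in WT OC (log2 change 1.42, SE 0.19, adjusted p = 3.73e-07). Ltbp1 was at 1.58, 2.09 and 2.96 CPM in WT BMM and at 11.1, 11.4 and 14.5 CPM in WT OC (log2 change 2.53, SE 0.21, adjusted p = 3.37e-11). All 3 genes showed WT OC as the high group, separate from the other macrophage cultures. Ltbp4, the remaining gene of that family and not on the list of members, went the other way at a low level, with means of 0.353 CPM in WT BMM and 0.0758 CPM in WT OC and ranges that overlapped (-2.16, SE 0.82, adjusted p = 0.0242).

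In null cultures these genes no longer followed that pattern. Ltbp2 was at 1.80, 2.42 and 4.64 CPM in null BMM and at 4.47, 5.60 and 6.72 CPM in null OC, so it began higher and ended lower than in WT (log2 change of null against WT 2.44, SE 0.28, adjusted p = 2.56e-06 in BMM, and -1.02, SE 0.13, adjusted p = 3.58e-06 in OC). Its rise with RANK-L was still past the threshold in null cells, at 0.96 (SE 0.19, adjusted p = 0.00272), but not with an offset for average transcript length (0.59, adjusted p = 0.33). Ltbp3 was at 8.05, 9.73 and 15.1 CPM in null BMM and at 4.71, 10.6 and 14.9 CPM in null OC, and did not move with RANK-L past the threshold (log2 change -0.02, SE 0.19, adjusted p = 0.956). It too was higher than WT in BMM (0.69, SE 0.17, adjusted p = 0.00353) and lower in OC (-0.76, SE 0.19, adjusted p = 0.00218). Ltbp1 was at 1.66, 3.05 and 4.80 CPM in null BMM and at 2.56, 2.84 and 5.07 CPM in null OC, the last from replicate 6. It was lower than WT in OC (-1.94, SE 0.17, adjusted p = 3.01e-08) and not past the threshold in BMM (0.57, SE 0.24, adjusted p = 0.0605). The difference in RANK-L response between genotypes was -3.45 for Ltbp2 (SE 0.29, adjusted p = 7.49e-11), -2.5 for Ltbp1 (SE 0.30, adjusted p = 5.79e-08) and -1.44 for Ltbp3 (SE 0.27, adjusted p = 6.79e-05).

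**Figure D2:**
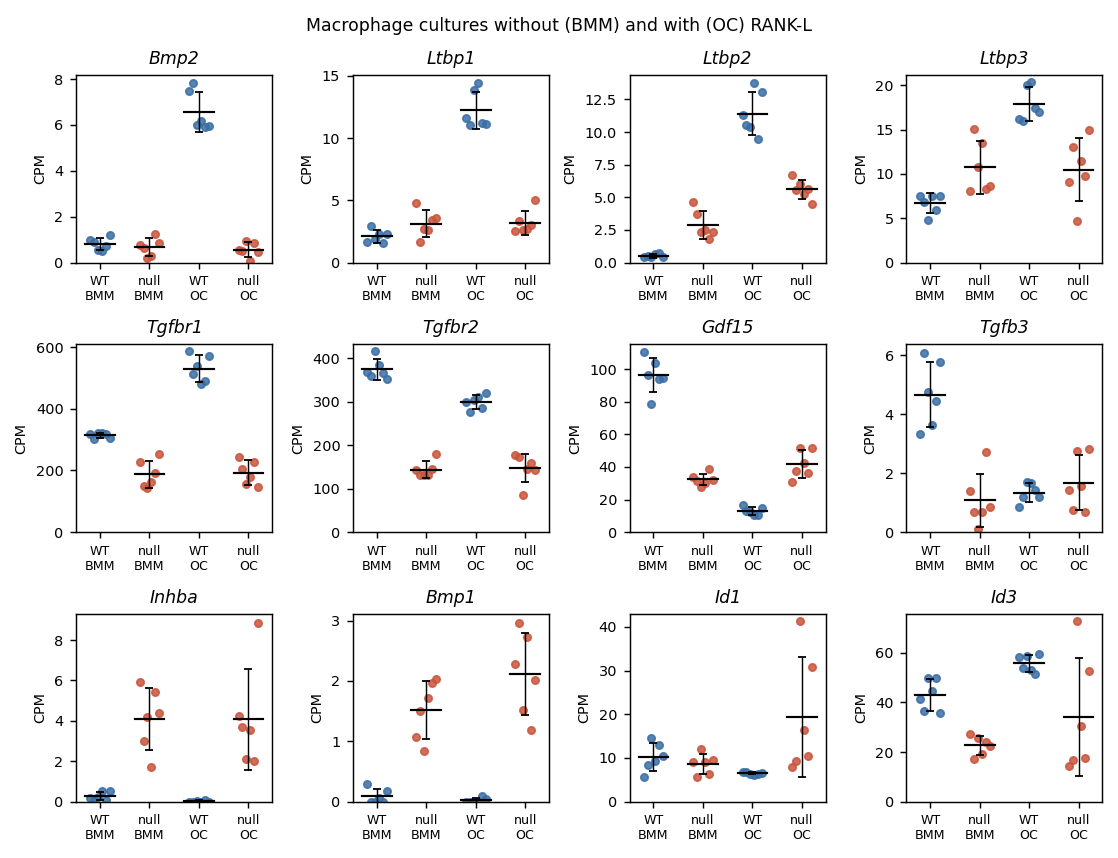
CPM of 12 members in the 24 macrophage cultures without RANK-L (BMM) and with it (OC); each dot is 1 library, the black line the group mean and the bar its SD, with WT in blue and null in red. Bmp2, Ltbp1, Ltbp2, Ltbp3 and Tgfbr1 are highest in WT OC, Inhba and Bmp1 are near 0 in WT and above it in null, and Id1 and Id3 have 2 high libraries in null OC.

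The deposited transcript values add a detail for Ltbp1 that the gene sum hides. In WT BMM nearly all of the gene's 8.97 TPM came from 1 short non-coding transcript, Ltbp1-207 (519 bases, chr17:75006294-75008799, plus strand, GRCm38), at 8.93 ± 2.56 TPM (SD, n = 6). The protein-coding transcripts were at 0.0304 ± 0.0378 TPM in WT BMM, 3.10 ± 0.462 TPM in WT OC, 0.325 ± 0.149 TPM in null BMM and 0.345 ± 0.2995 TPM in null OC. They rose with RANK-L in WT by 3.07 TPM (exact two-sided permutation test, p = 0.00216, the smallest that 6 against 6 allows, 0.00576 after adjustment over 8 such tests) and were lower in null than in WT OC by the same test (p = 0.00216, adjusted 0.00576). In BMM they were higher in null than in WT, by 0.295 TPM (exact permutation p = 0.00216, adjusted 0.00576). In null cells RANK-L moved them by 0.0197 TPM (exact permutation p = 0.924, adjusted 0.924). Ltbp1-207 itself was at 9.25 TPM in WT OC and 8.56 TPM in null OC, and none of its 4 comparisons passed (adjusted p from 0.806 to 0.924). These tests were chosen after the values had been seen. An offset for the average transcript length of each library, which accounts for changes in transcript usage, took Ltbp1 from 2.53 to 0.37 in WT OC against WT BMM (adjusted p = 0.146), from -1.94 to -0.30 in null against WT OC (adjusted p = 0.161) and from -2.5 to -0.24 in the interaction (adjusted p = 0.56).

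**Figure D3:**
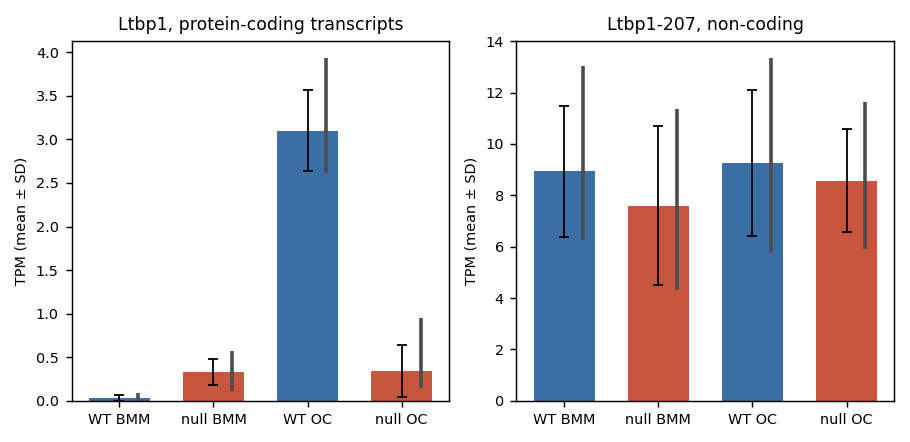
TPM of the protein-coding transcripts of Ltbp1 (left) and of the non-coding Ltbp1-207 (right) in the 4 macrophage groups, as means of 6 libraries with SD (capped bars) and lowest to highest library (grey lines), WT in blue and null in red; the vertical scales differ. The coding transcripts stand at 3.10 TPM in WT OC and at most 0.345 TPM in the other groups, while Ltbp1-207 lies between 7.60 and 9.25 TPM in all 4.

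The coding transcripts that rose in WT OC, Ltbp1-203 (1.91 TPM there, 0 in WT BMM) and Ltbp1-202 (1.09 TPM there, 0 in WT BMM), begin at 75178810 and 75178911, far downstream of the first start of the gene at 75005568, where the longer Ltbp1-201 begins (0.0365 TPM in WT OC). Both Ltbp1 start regions and those of Ltbp2 and Ltbp3, the 3 genes that rose, are printed from RefSeq (GRCm38.p6), each 250 bases before to 50 after a start, on the gene's strand. Capitals mark the SMAD box CAGAC or its reverse complement GTCTG, and the AP-1 motif TGANTCA, both strands searched.
Ltbp1, upstream start (chr17:75005279-75005578, plus): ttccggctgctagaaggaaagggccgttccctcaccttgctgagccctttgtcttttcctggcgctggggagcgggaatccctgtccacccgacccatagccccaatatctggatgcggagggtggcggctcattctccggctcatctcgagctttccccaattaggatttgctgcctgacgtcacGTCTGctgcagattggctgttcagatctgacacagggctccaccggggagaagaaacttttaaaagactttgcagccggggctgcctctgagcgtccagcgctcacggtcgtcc
Ltbp1, downstream start (chr17:75178531-75178830, plus): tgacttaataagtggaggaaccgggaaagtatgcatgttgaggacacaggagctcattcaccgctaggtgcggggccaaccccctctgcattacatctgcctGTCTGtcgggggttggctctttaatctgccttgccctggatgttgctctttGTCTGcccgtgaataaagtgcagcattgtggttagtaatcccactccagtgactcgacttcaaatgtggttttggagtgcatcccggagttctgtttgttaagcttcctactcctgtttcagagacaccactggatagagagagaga
Ltbp2 (chr12:84876442-84876741, minus): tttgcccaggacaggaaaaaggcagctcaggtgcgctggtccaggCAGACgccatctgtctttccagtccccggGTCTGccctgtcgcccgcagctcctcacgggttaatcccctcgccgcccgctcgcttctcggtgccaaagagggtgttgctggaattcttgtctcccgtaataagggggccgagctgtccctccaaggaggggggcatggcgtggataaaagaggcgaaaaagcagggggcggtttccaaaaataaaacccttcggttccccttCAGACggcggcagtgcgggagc
Ltbp3 (chr19:5740650-5740949, plus): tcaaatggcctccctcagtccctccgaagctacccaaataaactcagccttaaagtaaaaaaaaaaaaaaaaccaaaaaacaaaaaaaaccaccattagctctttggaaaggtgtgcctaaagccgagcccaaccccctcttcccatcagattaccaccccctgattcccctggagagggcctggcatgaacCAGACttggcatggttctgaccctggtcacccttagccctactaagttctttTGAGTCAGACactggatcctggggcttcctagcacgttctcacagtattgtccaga
The SMAD box occurred 1 and 2 times in the Ltbp1 windows, 3 times in Ltbp2 and 2 times in Ltbp3, and it is a common word, held by 49.59% of all 32851 windows of that length. The AP-1 motif occurred once, in Ltbp3, where it overlaps a SMAD box, and 7.81% of all windows held it. The GC-rich SMAD motif GGCGCC, found in 11.87%, was in none of the 4. In the tables used, 29 of the 43 members had such a window.

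Bmp1, a protease that cleaves LTBPs and procollagens, was near the floor in WT macrophage cultures and detected in every null one. It was at 0, 0.0290 and 0.285 CPM in WT BMM and at 0.846, 1.61 and 2.03 CPM in null BMM (log2 change 4.04, SE 0.54, adjusted p = 1.35e-05). OC libraries held 0, 0 and 0.102 CPM in WT and at 1.19, 2.15 and 2.96 CPM in null, at least 14.1-fold higher on the floor of 3 counts (adjusted p = 3.23e-08).

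Among the BMP and GDF ligands, Bmp2, an inducer of osteoblast differentiation, rose with RANK-L in WT and not in null cells. It was at 0.521, 0.816 and 1.22 CPM in WT BMM and at 5.93, 6.08 and 7.81 CPM in WT OC (log2 change 2.98, SE 0.34, adjusted p = 1.48e-08). In null BMM it was at 0.181, 0.694 and 1.26 CPM and in null OC at 0.0801, 0.530 and 0.941 CPM (log2 change -0.27, SE 0.40, adjusted p = 0.692). WT OC was alone at a high level, and null OC differed from it by a log2 change of -3.58 (SE 0.32, adjusted p = 3.94e-08). The difference in RANK-L response was -3.26 (SE 0.52, adjusted p = 7.14e-06). By TPM, Bmp2 in WT OC (2.98) was above that in WT OB (1.16), and it was the only member of the BMP and GDF ligands with its highest WT mean in OC.

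Gdf15 moved in opposite directions by genotype. It was at 78.8, 95.7 and 110 CPM in WT BMM and at 10.2, 12.7 and 16.4 CPM in WT OC (log2 change -2.89, SE 0.13, adjusted p = 6.46e-17). In null cultures it was at 27.9, 31.9 and 38.6 CPM in BMM and at 30.8, 39.8 and 51.9 CPM in OC, and the rise of 0.37 (SE 0.12, adjusted p = 0.0458) lost its call in 8 of 12 fits that left out 1 library. Null BMM lay below WT BMM (-1.57, SE 0.09, adjusted p = 7.92e-10) and null OC above WT OC (1.69, SE 0.15, adjusted p = 3.41e-08), with no overlap in either. The difference in response was 3.26 (SE 0.18, adjusted p = 1.1e-14). Bmp7 did not pass in any of these comparisons, with means of 0.544 to 0.828 CPM in the 4 groups. The other 6 of the 9 ligands, Bmp3, Bmp4, Bmp5, Bmp6, Gdf6 and Gdf10, had too few counts to test in macrophage cultures, with group means of at most 0.154 CPM.

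Of the TGF-beta and activin ligands, Inhba was the one with the largest genotype difference. It was at 0.0956, 0.199 and 0.524 CPM in WT BMM and at 1.72, 4.29 and 5.92 CPM in null BMM (log2 change 3.87, SE 0.41, adjusted p = 9.8e-07). In WT OC it was at 0, 0 and 0.102 CPM and in null OC at 2.00, 3.62 and 8.87 CPM, at least 27.1-fold higher on the floor (adjusted p = 3.52e-08). The highest value came from replicate 6, without which the fitted log2 change was 6.66 in place of 7.02. Null OC and null BMM did not differ (-0.01, SE 0.36, adjusted p = 0.995). Tgfb3 was at 3.31, 4.59 and 6.08 CPM in WT BMM and at 0.838, 1.32 and 1.70 CPM in WT OC (log2 change -1.80, SE 0.39, adjusted p = 0.000226). In null BMM it was at 0.121, 0.771 and 2.73 CPM, below every WT BMM library (-2.09, SE 0.41, adjusted p = 0.000556), and the genotypes did not differ past the threshold in OC (0.30, SE 0.35, adjusted p = 0.463). Tgfb1 was higher in null OC, at 11.8 ± 2.23 against 7.54 ± 0.759 CPM (log2 change 0.65, SE 0.14, adjusted p = 0.000502), and not past the threshold in BMM (0.27, SE 0.14, adjusted p = 0.129). Tgfb2 stayed under 1 CPM on average in the 4 groups.

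The receptors of TGF-beta itself were lower in null macrophage cultures of both kinds. Tgfbr1 was at 302, 317 and 322 CPM in WT BMM and at 143, 177 and 252 CPM in null BMM (log2 change -0.73, SE 0.12, adjusted p = 0.000135). RANK-L raised it in WT to 481, 526 and 587 CPM (0.76, SE 0.12, adjusted p = 6.96e-06), whereas null OC was at 146, 192 and 244 CPM (-1.45 against WT OC, SE 0.11, adjusted p = 6.26e-09). Tgfbr2 was at 351, 366 and 416 CPM in WT BMM and at 131, 137 and 180 CPM in null BMM (-1.37, SE 0.08, adjusted p = 1.17e-09). It fell with RANK-L in WT to 277, 301 and 320 CPM (-0.32, SE 0.11, adjusted p = 0.015), a call that an offset for length and GC content ended (-0.22, adjusted p = 0.0591), and null OC was at 86.4, 153 and 176 CPM (-1.02 against WT OC, SE 0.12, adjusted p = 2.6e-06). Neither receptor gene overlapped between genotypes in either culture, and neither moved with RANK-L past the threshold in null cells (0.05 and 0.04). Tgfbr3, the co-receptor betaglycan, was at most 0.495 CPM on average in these groups.

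Activin and BMP receptors divided. Acvr1b, the type I activin receptor, was at 19.9, 21.3 and 23.9 CPM in WT BMM and at 11.8, 16.6 and 16.9 CPM in WT OC (log2 change -0.50, SE 0.13, adjusted p = 0.00172). It was higher in null OC, at 27.1, 32.6 and 38.6 CPM (1.09, SE 0.11, adjusted p = 1.55e-07), and exceeded WT in BMM too, by 0.46 (SE 0.14, adjusted p = 0.0118). Bmpr2, the type II BMP receptor, was at 33.7, 42.2 and 46.9 CPM in WT BMM and at 25.4, 28.1 and 32.3 CPM in WT OC (-0.54, SE 0.10, adjusted p = 2.78e-05). It was lower in null BMM by -0.36 (SE 0.09, adjusted p = 0.00416), with ranges that overlapped, and did not differ by genotype past the threshold in OC (-0.01, SE 0.10, adjusted p = 0.921). Bmpr1a, a type I BMP receptor at low levels here, was higher in null cultures, at 1.19 ± 0.617 against 0.386 ± 0.232 CPM in BMM (1.58, SE 0.43, adjusted p = 0.00578) and at 1.04 ± 0.379 against 0.270 ± 0.194 CPM in OC (1.94, SE 0.44, adjusted p = 0.00105). Acvr1, a type I receptor shared by BMPs and activins, rose with RANK-L in WT by 0.99 (SE 0.16, adjusted p = 4.5e-06), and Acvr2a, a type II receptor of the same ligands, by 0.93 (SE 0.15, adjusted p = 5.57e-06). In null cells neither passed (0.31, adjusted p = 0.177, and -0.03, adjusted p = 0.934), and both responses differed between genotypes (-0.67 and -0.96, adjusted p = 0.0131 and 0.000507). Bmpr1b had no count in any BMM library and 0.268 to 0.869 CPM in WT OC, too few to test in the 24 libraries, and Acvr2b was at most 0.42 CPM on average.

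Most receptor-regulated Smads moved little in macrophage cultures. Smad1, a BMP Smad, was at 10.3, 14.4 and 15.1 CPM in WT BMM and at 8.06, 8.90 and 9.51 CPM in WT OC (log2 change -0.61, SE 0.13, adjusted p = 0.000187). Smad5, another BMP Smad, was lower in null OC, at 13.2 ± 3.17 against 19.3 ± 1.17 CPM (-0.54, SE 0.14, adjusted p = 0.00279). Smad4, the partner shared by both branches, exceeded WT in null BMM by 0.45 (SE 0.17, adjusted p = 0.0378), which was lost in 7 of 12 fits without 1 library and was 0.04 (adjusted p = 0.872) with the offset for average transcript length. Smad2 and Smad3, the TGF-beta Smads, passed in none of the 3 comparisons within macrophage cultures, with log2 changes from -0.44 to 0.21. The inhibitors differed more. Bambi, a decoy that resembles a receptor without its kinase, was at 7.85, 8.84 and 9.79 CPM in WT BMM and at 15.8, 18.0 and 19.1 CPM in null BMM (1.01, SE 0.09, adjusted p = 1.91e-07). OC libraries held 6.21, 7.07 and 8.75 CPM in WT and at 13.6, 17.2 and 22.4 CPM in null (1.28, SE 0.14, adjusted p = 3.53e-07), so each null culture was above every WT one. Smad6, an inhibitory Smad of the BMP branch, was higher in null BMM (1.29, SE 0.30, adjusted p = 0.00213) and null OC (1.16, SE 0.35, adjusted p = 0.00791). The first was 0.77 (adjusted p = 0.216) with the offset for average transcript length, and the second 0.71 (adjusted p = 0.0552) without replicates 3 and 6 of null OC. Smad7, the general inhibitory Smad, passed in neither (0.28 and -0.26).

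The induced targets gave no single direction. Tgfbi, a secreted matrix protein named for its induction by TGF-beta, was at 133, 164 and 180 CPM in WT BMM and at 228, 239 and 256 CPM in WT OC (log2 change 0.59, SE 0.10, adjusted p = 1.65e-05). In null cultures it was at 80.4, 122 and 129 CPM in BMM and 88.9, 99.5 and 117 CPM in OC, lower than WT by -0.52 (SE 0.12, adjusted p = 0.00215) and -1.24 (SE 0.07, adjusted p = 1.5e-10). Id3, a BMP-induced inhibitor of transcription factors, was at 35.5, 42.8 and 49.9 CPM in WT BMM and at 17.4, 23.2 and 27.1 CPM in null BMM (-0.91, SE 0.12, adjusted p = 1.21e-05). In null OC, Id3 ran from 14.3 to 72.6 CPM with a median of 24, with replicate 3 (72.6) above and replicate 6 (52.6) within the WT OC range of 51.4 to 59.4. Its log2 change in OC was -0.72 (SE 0.36, adjusted p = 0.101), -1.09 without replicate 3 (adjusted p = 0.00556) and -1.47 without both (SE 0.18, adjusted p = 1.19e-05). Id1, its close relative, was at 6.18, 6.5 and 6.82 CPM in WT OC and at 8.04, 13.5 and 41.3 CPM in null OC, with the same replicates 3 (41.3) and 6 (30.8) on top. Its null OC level exceeded WT by 1.57 (SE 0.37, adjusted p = 0.00204) and by 0.78 without those 2 libraries (SE 0.17, adjusted p = 0.000525). The rise of Id1 from null BMM to null OC, 1.16 (SE 0.32, adjusted p = 0.0228), was 0.80 without replicate 3 (adjusted p = 0.0707), 1.07 without replicate 2 of null BMM (adjusted p = 0.0599) and 0.37 without replicates 3 and 6 (adjusted p = 0.285). In those 2 null OC libraries the 7 endothelial markers summed to 214 and 272.5 CPM against 114 to 172 CPM in the other 4. That sum was also 132 to 186 CPM in WT BMM and 159 to 318.5 CPM in null BMM. Only 3 of the 7 endothelial markers were tested in OC, and 2 had no count in null OC. The 5 osteocyte markers, a sum that was mostly the gene Pdpn, reached 161.9 and 173.4 CPM against 83.5 to 107.5 CPM. The 13 osteoblast and stromal markers other than Spp1 summed to 99.6 CPM in replicate 3 and 339 CPM in replicate 6. The other 4 libraries held 71.9 to 139.5 CPM of these 13 markers, so replicate 3 lay within their range. The part of such marked cells in the Id1 and Id3 values was not tested.

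Counted by genotype, 11 members were higher and 7 lower in null than in WT BMM of 29 tested (27.0% and 25.3% of all 11935 genes), with a median log2 change of 0.14 against 0.02 for all genes. In OC 9 were higher and 9 lower of 28 tested (32.4% and 33.1% of all 12129 genes), with medians of 0.13 and -0.03. Set beside those shares, the members were called about as often as all genes in OC, and whether the higher calls in BMM exceed the background was not tested. By role, the 4 latent binding and processing genes had 3 higher and 0 lower in BMM and 1 higher and 3 lower in OC, and the 3 inhibitory Smads and decoy had 2 higher in each. Of the secreted antagonists, Grem1, which binds BMPs, rose in null BMM, to 1.13 ± 0.548 against 0.252 ± 0.148 CPM (2.18, SE 0.46, adjusted p = 0.00085). Fst was listed with few counts, and Chrd and Nog, both BMP-binding proteins, were near or at 0 in macrophage cultures.

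**Figure D4:**
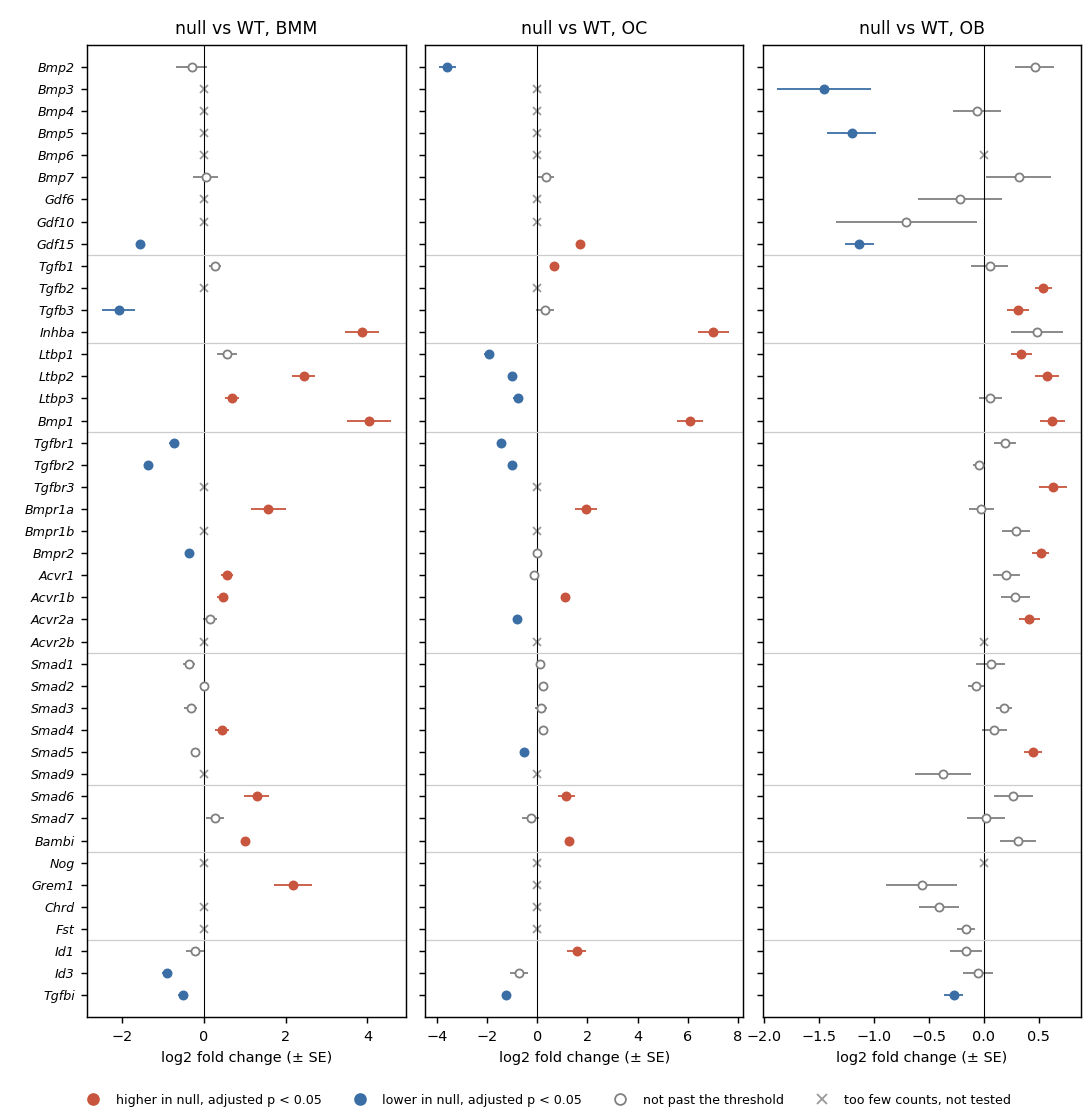
Log2 change of null against WT for each member in BMM, OC and OB (dots, bars ± SE, 6 libraries per group), in red where higher and blue where lower past an adjusted p of 0.05, open where not past it and crossed where not tested; the horizontal scales differ. Inhba and Bmp1 are far to the right in BMM and OC, Tgfbr1 and Tgfbr2 to the left, and OB changes lie between -1.45 and 0.63.

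Most stromal markers tested were also higher in null macrophage cultures. Of 14 osteoblast and stromal markers, 7 were tested in BMM, with 6 higher and 1 lower in null, and 8 in OC, with 7 higher and 0 lower. Without Spp1, which macrophages also express, the other 13 summed to 10.6 to 31.65 CPM in WT BMM, 75.9 to 169.6 CPM in null BMM, 13.4 to 15.9 CPM in WT OC and 71.9 to 339 CPM in null OC, the last from replicate 6. Col1a1, the main bone collagen, was at a mean of 15.3 CPM in BMM of WT and 63.2 CPM in those of null, and at 8.17 and 84.1 CPM in OC. The osteoblast genes Sp7, Alpl and Bglap were at most 0.15 CPM on average in these groups. In null BMM the 14 markers stood at a median of 0.0987% of their level in null OB (0.0003% to 26.4%), and in null OC at 0.117%. By the same measure Inhba stood at 0.843% and 0.838%, Bmp1 at 1.36% and 1.88%, Grem1 at 3.72% and 3.14% and Bmpr1a at 3.24% and 2.85%. Other members low in WT BMM went both ways. Among those with a lower mean in null BMM were Bmp4 (0.0698 CPM in WT, 0.0476 CPM in null), Chrd (0.0353 and 0.0089 CPM) and Tgfbr3 (0.495 and 0.377 CPM). Among those with a higher mean were Tgfb2 (0.160 and 0.558 CPM), Smad6 (0.560 and 1.37 CPM) and Ltbp2 (0.531 and 2.89 CPM). For Bambi the shares were 47.7% in both cultures, and for Acvr1b 175% and 192%. Smooth muscle markers, of which 4 of 6 were tested, had 3 higher and 1 lower in null BMM and 2 higher and 1 lower in null OC. The 5 osteocyte markers summed to 11.2 to 16.6 CPM in WT BMM and 72.2 to 98.2 CPM in null BMM, and to 7.72 to 9.47 CPM in WT OC and 83.5 to 173.4 CPM in null OC, against 54.1 to 79.7 CPM in null OB. Most of that sum was Pdpn, which encodes podoplanin, at a mean of 82.1 CPM in null BMM and 120.6 CPM in null OC, and only 2 of the 5 were tested. The part of such cells in the members' values was not tested.

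In osteoblast cultures the members that differed by genotype changed by log2 changes of -1.45 to 0.63. Of 40 tested, 9 were higher and 4 lower in null OB (15.5% and 16.9% of all 13614 genes), with a median log2 change of 0.08 against 0.00186 for all genes. Lower were ligands and a target. Bmp5, a BMP of the skeleton, was at 7.95, 10.4 and 11.6 CPM in WT and at 1.92, 4.70 and 6.11 CPM in null (log2 change -1.20, SE 0.22, adjusted p = 0.000877). Gdf15 was at 11.5, 13.5 and 16.6 CPM in WT and at 5.03, 6.36 and 7.91 CPM in null (-1.13, SE 0.13, adjusted p = 2.75e-05). Both ligands showed no overlap between genotypes. Bmp3, an antagonistic BMP of bone, was at 0.421, 0.972 and 1.92 CPM in WT and at 0.193, 0.245 and 0.728 CPM in null (-1.45, SE 0.43, adjusted p = 0.017). Tgfbi was lower, at 178 ± 27.9 against 215 ± 12.1 CPM (-0.27, SE 0.09, adjusted p = 0.0283), with ranges that overlapped and a call lost in 5 of 12 fits without 1 library. Of the exon bases of Bmp5, 46.7% are shared with Gm26903 on the opposite strand, and since the counting is not stated to use strand, the value of Bmp5 is uncertain.

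Higher in null OB were TGF-beta ligands, latent binding and processing proteins, receptors and Smad5. Tgfb2 was at 102, 111 and 126 CPM in WT and at 149, 157 and 206 CPM in null (log2 change 0.54, SE 0.08, adjusted p = 0.000154). Bmp1 was at 53.4, 75.1 and 85.2 CPM in WT and at 93.5, 112 and 135 CPM in null (0.63, SE 0.11, adjusted p = 0.000778). Neither gene overlapped between genotypes. Bmpr2 was at 28.9, 35.6 and 38.9 CPM in WT and at 47.0, 49.0 and 55.6 CPM in null (0.52, SE 0.08, adjusted p = 0.000186), and Smad5 at 28.2, 32.5 and 36.5 CPM in WT and at 39.9, 44.1 and 51.1 CPM in null (0.45, SE 0.08, adjusted p = 0.000777). The remaining 5 were Ltbp1, Ltbp2, Tgfb3, Tgfbr3 and Acvr2a, with log2 changes of 0.31 to 0.63, and Tgfb3 lost its call in 3 of 12 fits without 1 library. Inhba, at 346 ± 21.3 CPM in WT and 487 ± 185 CPM in null, did not pass (0.49, SE 0.23, adjusted p = 0.136), with null libraries from 215 to 721 CPM. Id1 and Id3 did not pass either (-0.16 and -0.05, adjusted p = 0.433 and 0.815), nor did any inhibitory Smad or any of the 3 secreted antagonists tested. Nog, the remaining antagonist, had too few counts to test.

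Transcript length moved with the osteoblast result. Over all 13614 genes the log2 change of null against WT OB had a Spearman correlation of 0.548 with transcript length, and over the 40 members tested 0.421, given as descriptions. In BMM the values were -0.197 over all genes and 0.19 over the members tested, and in OC 0.0139 and -0.318. With an offset fitted to the trend of each library on length and GC content, the members higher in null OB went from 9 to 2, Tgfb2 (0.44, adjusted p = 0.00123) and Bmp1 (0.46, adjusted p = 0.00643). Those lower went from 4 to 6: the same 4 remained, and Tgfbr2 (-0.26, adjusted p = 0.00597) and Chrd (-0.54, adjusted p = 0.0397), an extracellular BMP antagonist, passed in addition. Over all 13614 genes the same offset took those higher from 2116 to 1084 and those lower from 2305 to 1206. Bmpr2, with the longest transcripts of the members at 12016 bases, went from 0.52 to 0.06 (adjusted p = 0.576), and Smad5, at 5592 bases, from 0.45 to 0.20 (adjusted p = 0.101). Bmp5 and Gdf15 kept their calls, at -1.32 and -1.02 (adjusted p = 0.000841 and 0.000325). Whether length itself or something that varies with it set these differences was not tested.

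**Figure D5:**
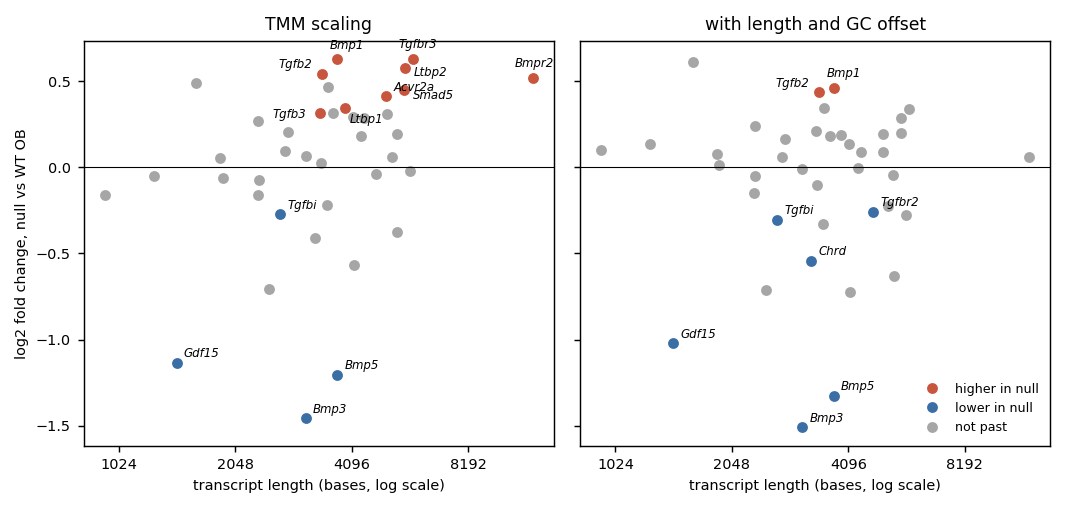
Log2 change of null against WT OB for the 40 members tested against transcript length in bases (log scale), with TMM scaling alone (left) and with the length and GC offset (right); red dots were higher and blue dots lower in null past the threshold, grey dots not past it. On the left 9 red dots lie between 3384 and 12016 bases, and on the right 2 of them, Tgfb2 and Bmp1, remain.

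Markers of the osteoblast cultures' cell types also differed by genotype. Of the 14 osteoblast and stromal markers 6 were higher and 1 lower in null OB, and without Spp1 they summed to 77090 to 105200 CPM in WT and 119800 to 143700 CPM in null, with no overlap. Of the 12 macrophage markers 10 were lower in null OB, 4 chondrocyte markers of the 5 tested were higher (Col2a1, a cartilage collagen, at 198 CPM in WT and 1021 CPM in null), and 5 of 10 osteoclast markers were higher. Their part in the members' values was not tested. For Gdf15, the TPM in WT BMM (109) was above that in WT OB (16.0).

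Genotype effects differed between osteoblast and macrophage cultures for members about as often as for all genes. Between OB and OC, the effect differed for 23 of 40 members tested, 11 more positive and 12 more negative in OB (27.8% and 27.4% of all 14278 genes). Between OB and BMM it differed for 17, 7 more positive and 10 more negative (21.6% and 24.3%). Bmp2 had an effect of -3.58 in OC and 0.46 in OB (difference 4.05, SE 0.42, adjusted p = 1.59e-10). Ltbp1 was lower in null OC and higher in null OB (difference 2.31, SE 0.21, adjusted p = 7.54e-12), and Tgfbr1 was lower in OC and not past the threshold in OB (difference 1.66, SE 0.17, adjusted p = 1.9e-10). The Ltbp1 call in OC was lost with the offset for average transcript length, and its call in OB with that for length and GC content. Gdf15 was higher in null OC and lower in null OB (difference -2.81, SE 0.19, adjusted p = 1.91e-15). Tgfbr2 was lower in null BMM and not past the threshold in OB (difference 1.35, SE 0.14, adjusted p = 4.65e-10). For Bmp1 and Ltbp2 the effect was in the same direction in BMM and OB but larger in BMM on the log2 scale (differences -3.41, SE 0.49, adjusted p = 4.94e-07, and -1.85, SE 0.27, adjusted p = 8.04e-07), and the latter difference was lost once average transcript length was offset. In WT BMM Bmp1 was near the floor, with means of 0.0863 CPM there and 1.52 CPM in null BMM, against 72.6 and 112 CPM in WT and null OB. Bmpr2 was lower in null BMM and higher in null OB (difference 0.90, SE 0.13, adjusted p = 5.96e-07).

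Other genes of the pathway, 78 by a list of ligands, cofactors, integrins, Smad regulators and targets, of which 77 were matched, were counted in the same way. In BMM 15 were higher and 13 lower of 43 tested (27.0% and 25.3% of all genes), in OC 17 and 14 of 40 (32.4% and 33.1%), and in OB 15 and 5 of 65 (15.5% and 16.9%). WT OC against WT BMM gave 11 higher and 15 lower of 46 (30.4% and 30.1%), and the same comparison in null cells 4 and 2 (6.77% and 6.08%). In BMM the smallest p-values among those higher were of Tsku, a secreted BMP-binding protein, at 2.36, 2.5 and 2.66 CPM in WT and at 12.2, 15.8 and 19.0 CPM in null (log2 change 2.70, SE 0.12, adjusted p = 4.57e-11), and of Fstl1 (1.46, SE 0.15, adjusted p = 5.64e-07). Among those lower they were of Fkbp1a, whose product binds type I receptors, at 354, 366 and 386 CPM in WT and at 245, 259 and 270 CPM in null (-0.50, SE 0.05, adjusted p = 6.83e-07), and of the receptor gene Neo1 (-1.77, SE 0.24, adjusted p = 1.22e-05). These 4, picked by their small p-values in this comparison, showed no overlap between genotypes in BMM. The share of all genes without overlap was not counted.

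In OC the same rule named another 4 genes. Emilin1, a matrix glycoprotein that binds pro-TGF-beta, was at 94.7, 101 and 114 CPM in WT BMM, 15.1, 18.3 and 18.5 CPM in WT OC and 95.5, 134 and 144 CPM in null OC (log2 change of null against WT OC 2.84, SE 0.10, adjusted p = 4.04e-13). Acvrl1, a type I receptor, was at 3.81, 3.98 and 6.08 CPM in WT OC and at 29.5, 43.5 and 46.8 CPM in null OC (3.25, SE 0.14, adjusted p = 3.61e-12). Tsc22d1, a TGF-beta-stimulated gene, was at 7.13, 8.08 and 8.98 CPM in WT BMM, 72.6, 77.1 and 82.5 CPM in WT OC and 8.13, 8.72 and 10.6 CPM in null OC (-3.09, SE 0.08, adjusted p = 6.56e-15). Itgav, the integrin alpha V chain that pairs with beta chains to activate latent TGF-beta, was at 658, 710 and 819 CPM in WT OC and at 100, 127 and 139 CPM in null OC (-2.56, SE 0.08, adjusted p = 5.7e-14). For these 4 genes, picked in the same way, the null OC libraries lay outside the WT OC range. In OB, Itgav was higher in null, at 210, 233 and 247 against 121, 141 and 148 CPM (0.75, SE 0.07, adjusted p = 5.38e-06), as was Bmp8a, at 5.08 ± 0.988 against 1.49 ± 0.418 CPM (1.77, SE 0.20, adjusted p = 2.18e-05). Nrros, which tethers latent TGF-beta on macrophages, was lower in null OB, at 134 ± 15.0 against 204 ± 22.8 CPM (-0.61, SE 0.09, adjusted p = 0.000116), and so was Lefty1, at 6.17 ± 1.27 against 9.29 ± 0.818 CPM (-0.60, SE 0.13, adjusted p = 0.00341).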

How the data were processed

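RNA-seq of 36 libraries, 6 per group, was analysed. The authors deposited estimated counts and TPM (a length-scaled share of transcripts) per transcript, per the file headers. The submitters' processing notes name kallisto, DESeq2 and GRCh38, with no versions, whereas the transcript identifiers are those of mouse. Of 88198 transcripts, 97.6% were matched to GENCODE M21 (GRCm38), and 0.61% to 0.96% of a library's counts stayed unmatched. Estimated counts were summed per gene and rounded, and TPM summed. Genes were tested with edgeR 4.0.16 (R 4.3.3): low-count filter, TMM scaling, robust quasi-likelihood F test, p-values adjusted over all tested genes by Benjamini and Hochberg, threshold 0.05. Genotype comparisons used 12 libraries, RANK-L comparisons and their interaction 24, and comparisons between cell types 36. Exact permutation tests used SciPy 1.17.1. The procedure was tested on simulated data.

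The members and lists were chosen with earlier results of these data known. Members given per library are the 4 higher and 4 lower with the smallest p in a comparison at a mean of at least 1 CPM (other pathway genes: 2 and 2), with further members by role. For genes picked by small p-values, lack of overlap between groups partly follows from that choice. How many of all genes lacked overlap was not counted. A fold against a group at the floor of 3 counts per library is a lower bound. Alternatives were size factors by RLE, dropping the filter, keeping genes that average 10 counts or more, DESeq2 1.42.0 in place of edgeR, a replicate block, offsets for average transcript length or for length and GC content (lowess span 0.3), 1 fit of all libraries, each library left out and, chosen after seeing the data, null OC without replicates 3 and 6. The lowest chi-square per gene over 90 replicate pairs was 3.46, so no library was counted as a duplicate.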

Additional observations from a re-analysis of the deposited data

Results flagged for a closer look

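In 4 of 97 sets of 6 libraries of a member, the highest library stood apart from the other 5 by Dixon's test, which chance gives in about 1 of 20 sets. They were Inhba at 8.87 CPM and Ltbp1 at 5.07 CPM, both in replicate 6 of null OC, Tgfb2 at 206.0 CPM in replicate 5 of null OB, and Tgfbr2 at 180.4 CPM in replicate 6 of null BMM. In replicate 6 of null OC the stromal markers without Spp1 summed to 339 CPM, the highest of that group, and their part in these values was not tested.

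The response to RANK-L differed between genotypes for 15 members by the interaction test, among them Ltbp2 (-3.45), Gdf15 (3.26), Bmp2 (-3.26), Inhba (3.16), Ltbp1 (-2.50), Tgfb3 (2.40), Id1 (1.81) and Ltbp3 (-1.44, all log2 differences, null minus WT). The genotype effect differed between OB and OC for 23 members, among them Bmp2 (4.05), Gdf15 (-2.81), Ltbp1 (2.31), Tgfbr1 (1.66), Ltbp2 (1.60), Acvr2a (1.26) and Smad5 (1.00). Between OB and BMM it differed for 17 members, among them Bmp1 (-3.41), Tgfb3 (2.43), Ltbp2 (-1.85), Tgfbr2 (1.35) and Bmpr2 (0.90).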

How the results depend on the processing

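In null against WT OB the offset for length and GC content left 8 members called, 2 higher, and with the replicate block added 2 higher and 7 lower. Of all 13614 genes the offset left 1084 higher and 1206 lower, and with the block 892 and 1088. In null OC against null BMM the offset for average transcript length left 1 member called, which was higher (678 higher and 651 lower of all 12671 genes). Under the length and GC offset Bmpr2 turned from -0.27 to 0.0245 in WT OB against WT BMM (0.0255 with the block) and from 0.55 to -0.25 in the difference of genotype effects between OB and OC (-0.24 with the block). The cause was not tested. Leaving out each library gave 17 to 19 members called in BMM, 18 to 21 in OC, 11 to 15 in OB, 15 to 16 for RANK-L in WT and 13 to 18 in the interaction. In null OC against null BMM it gave 1 to 4 called, 1 to 4 higher and 0 to 1 lower, the low counts without replicate 2 of null BMM or replicate 3 of null OC. Without replicates 3 and 6 of null OC, 21 members were called in OC, 2 in null OC against null BMM and 19 in the interaction. Over all genes that setting gave 4240 higher and 4230 lower of 12389 in OC, and 3399 and 3507 of 12905 in the interaction. Null OC against null BMM then had 695 higher and 730 lower of 12905. For the fits without 1 library the shares of all genes are not given here.

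The replicate numbers did not pair the samples: same-numbered libraries correlated from -0.30 to 0.24 over 54 pairs, and 5 correlated best with their own number. With the number as a replicate block, 17 members were called in BMM, 19 in OC, 14 in OB, 15 for RANK-L in WT, 2 for RANK-L in null and 15 in the interaction. Over all genes the block gave 2845 higher and 2803 lower of 11935 in BMM, and 3669 and 3895 of 12129 in OC. In OB it gave 1943 and 2143 of 13614. Of 12671 genes, RANK-L in WT had 3796 and 3742, RANK-L in null 663 and 580, and the interaction 3083 and 3211.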
